A study of Mus musculus with 8 samples.

Results

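The genes described here build, hold together and switch on the contractile apparatus and the actin cytoskeleton of lung mesenchymal cells. They were chosen by name: 37 genes were listed, and a gene counted as measured where the array annotation gave at least 1 probe set to that gene alone. By this rule 36 of the 37 were measured, among 22180 genes tested in all. Ilk, an integrin-linked kinase gene, shares its probe sets with Taf10 or Rrp8 and was not analysed here. Where a gene had several probe sets, the one with the highest mean over all arrays was used.

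The cells came from lungs of C57BL/6J mice that were 11 weeks old and kept pathogen-free. One group of 4 samples was taken from mice given bleomycin into the trachea, and the other group of 4 from mice given PBS the same way. Bleomycin damages DNA, injures the lung and provokes fibrosis. Cells that carried none of CD45, CD31 and EpCAM, the surface antigens of leukocytes, endothelium and epithelium, were sorted on day 10, and 100 ng of total RNA per sample was labelled for 1-colour arrays. The gate takes everything that lacks those antigens, so fibroblasts, pericytes and smooth muscle cells enter together, and fewer cells of a type and less RNA per cell cannot be told apart. The labels do not say whether replicates are separate mice, so p-values measure the spread between samples, which may be technical.

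Smooth muscle cells contract when kinases phosphorylate the regulatory light chain of myosin II and the motor pulls on actin filaments that are stabilised by tropomyosin and anchored in dense bodies and focal adhesions. Fibroblasts in a healing or fibrotic lung can build a related apparatus, the stress fibre, and are then called myofibroblasts, with smooth muscle α-actin as the usual marker. Many of the genes are switched on by SRF, a transcription factor that binds the CArG box, together with its coactivators myocardin and the MRTF proteins. The comparison asks how these genes differ between mesenchymal cells of injured and of control lungs.

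Levels are log2 intensities as deposited, and a difference is the mean of the bleomycin arrays minus the mean of the control arrays, so that 1 stands for a doubling. Differences carry the standard error (SE) of limma, and "rose" or "fell" is used where limma's p, adjusted by Benjamini-Hochberg over all genes tested, was under 0.05. Of 8 fibroblast markers 5 rose and 2 fell, and their summed signal, as log2 of the added intensities, ran from 14.79 to 15.01 on bleomycin arrays and from 14.55 to 14.76 on control arrays. Among them the collagen gene Col1a1 rose, averaging 12.77 in bleomycin and 11.94 in control cells, and the receptor gene Pdgfra fell, averaging 12.15 in bleomycin and 12.58 in control cells. Of 5 mesothelial markers 1 fell, Upk1b by 0.96 ± 0.16, and none rose. Their summed signal ran from 9.90 to 10.55 on bleomycin arrays and from 10.90 to 11.05 on control arrays. Their mean log2 level overlapped, at 6.67 to 7.12 on bleomycin arrays and 6.94 to 7.24 on control arrays. The gate should remove epithelium, endothelium and leukocytes, but markers of all of them differed. Of 12 epithelial markers 9 fell and none rose, and of 9 endothelial markers 7 fell and none rose. Of 8 leukocyte markers 4 rose, C1qb by 2.02 ± 0.14, C1qa by 1.02 ± 0.11, Cd68 by 0.70 ± 0.13 and Tyrobp by 0.35 ± 0.11, and Cd79a fell by 0.84 ± 0.14. The summed leukocyte signal overlapped, from 10.78 to 11.29 on bleomycin arrays and from 10.79 to 11.53 on control arrays. Its brightest marker was Lyz2, which averaged 10.17 in bleomycin and 10.74 in control cells and did not pass. The mean log2 level of the 8 leukocyte markers did not overlap. It ran from 6.997 to 7.267 on bleomycin arrays and from 6.601 to 6.937 on control arrays. The endothelial sum ran from 10.70 to 11.31 on bleomycin arrays and from 11.65 to 12.79 on control arrays, and the epithelial sum from 11.05 to 12.31 on bleomycin arrays and from 13.51 to 14.38 on control arrays. Control replicates 1 and 2 had higher epithelial sums, at 14.38 and 14.21, than control replicates 3 and 4, at 13.53 and 13.51. Their endothelial sums were higher too, at 12.67 and 12.79 against 11.83 and 11.65. So were their leukocyte sums, at 11.31 and 11.53 against 10.99 and 10.79. Results are therefore also given without control replicates 1 and 2, and the part of these cells in the results was not tested.

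Most of the contractile and cytoskeletal genes that changed were higher after bleomycin. Of the 36 measured genes 19 rose and 4 fell, against 9.12% and 8.24% of all genes tested. Over 2-fold, 8 rose and 1 fell, where 1.98% and 1.27% of all genes did. The median log2 difference was 0.45 over the 36 genes and 0.03 over all genes tested. In 21 genes every bleomycin array lay above every control array, and in 4 every bleomycin array lay below, against 12.5% and 11% of all genes. Among the 10666 genes at least as bright as the dimmest of the 36, 13.8% rose and 14.3% fell. These shares also stand beside the counts by role below. Without control replicates 1 and 2, 16 rose and 2 fell, against 5.43% and 4.47% of all genes in that fit. Over all genes 2022 rose and 1828 fell, and with each array centred on its median 1623 rose and 2314 fell, while the counts for the 36 genes stayed at 19 and 4.

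**Figure D1:**
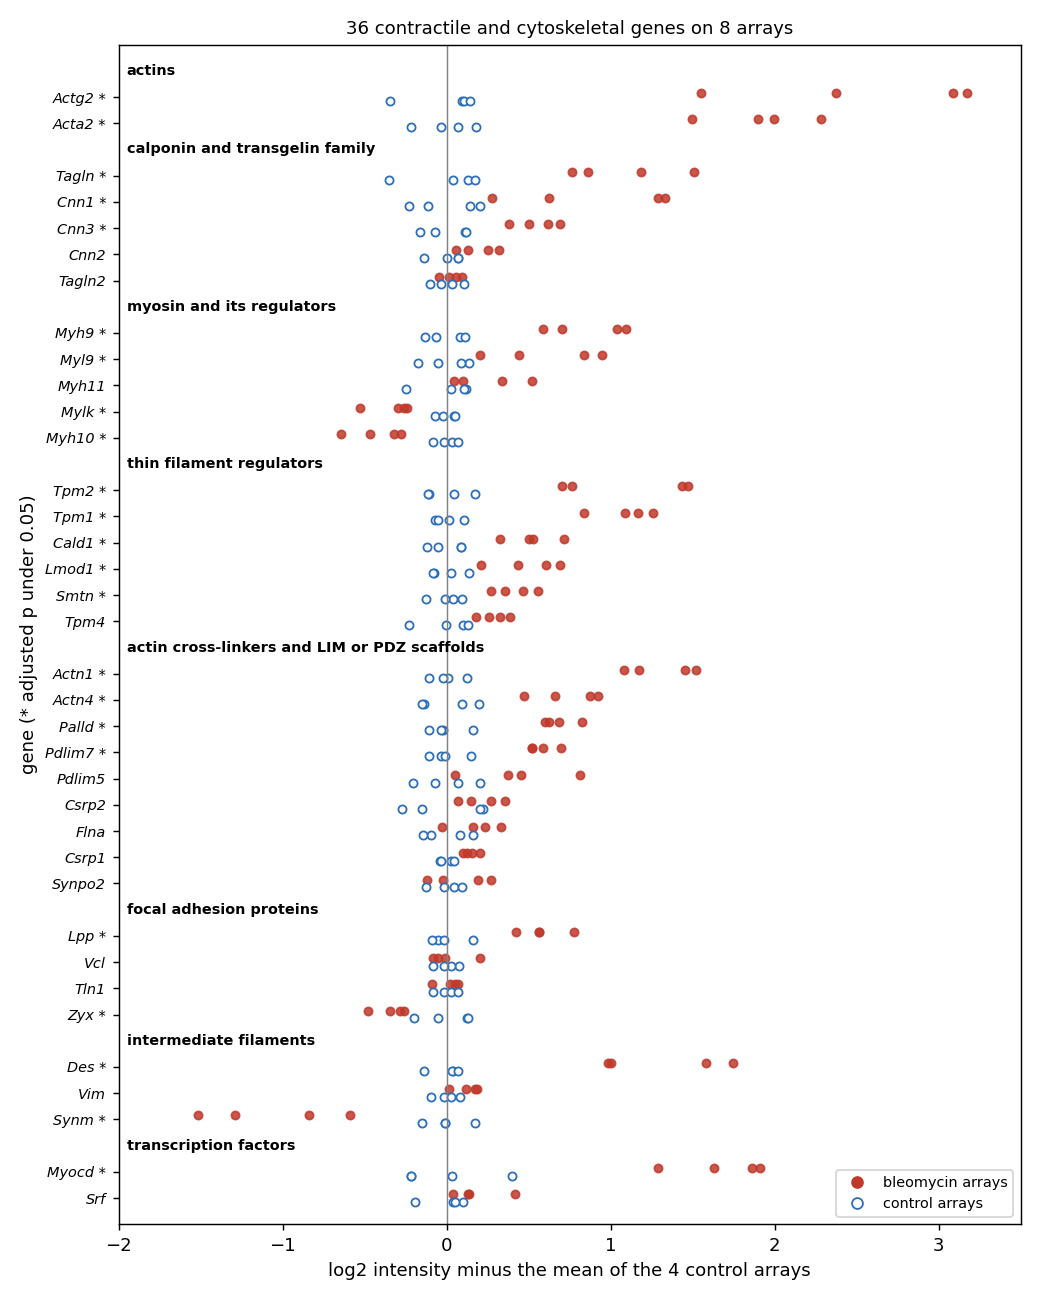
Log2 intensity of each gene on each array, minus the mean of the 4 control arrays, for the 36 measured genes grouped by role. Filled points are bleomycin arrays, open points control arrays, and an asterisk marks an adjusted p under 0.05. The actins Actg2 and Acta2 lie farthest to the right and Synm farthest to the left.

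The smooth muscle actins changed most. Acta2, which encodes smooth muscle α-actin, had log2 levels of 12.40, 12.01, 12.12 and 11.62 in bleomycin cells, against 10.09, 9.90, 10.30 and 10.19 in control cells. The groups were more than 1 log2 unit apart, and Acta2 was already bright in control cells. It rose by 1.92 ± 0.16, or 3.78-fold (adjusted p = 5.04e-05). Actg2, the γ-actin of visceral smooth muscle, had 8.88, 8.08, 8.80 and 7.26 in bleomycin cells, against 5.81, 5.81, 5.85 and 5.36 in control cells. Bleomycin replicate 4 was far below the other bleomycin arrays but still above every control array. The rise of Actg2 was 2.55 ± 0.31, or 5.84-fold (adjusted p = 0.000437), and it was the largest among the 36 genes. Because actins resemble each other closely, cross-hybridisation between their probe sets is possible. The broadly expressed actins Actb and Actg1, which are outside the 36 genes, showed differences of 0.12 (adjusted p = 0.369) and 0.13 (adjusted p = 0.403), which failed the test.

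The bases upstream of Acta2 are shown because this gene marks the myofibroblast and carries known SRF elements. RefSeq promoter windows of GRCm38.p6 were available for 32 of the 37 genes, and the 250 bases before each annotated start were searched. There was no window for Actg2, Tagln and Myocd, which rose, or for Myh11 and Csrp2, which did not pass. The window of Acta2 lies at chr19:34255374-34255623 on the minus strand. Capitals mark a TEAD motif (GGAATG, or CATTCC on the other strand) and both CArG-like boxes, which differ from the CArG consensus by 1 G or C among the 6 inner bases. That looser form was searched after the Acta2 bases had been seen.
Acta2: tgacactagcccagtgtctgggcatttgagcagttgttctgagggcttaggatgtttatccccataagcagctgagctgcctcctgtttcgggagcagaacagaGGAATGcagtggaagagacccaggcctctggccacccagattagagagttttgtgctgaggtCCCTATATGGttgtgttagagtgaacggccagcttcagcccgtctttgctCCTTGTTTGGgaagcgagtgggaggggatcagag

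Exact CArG boxes were found upstream of Cnn2, Myl9, Srf and Vcl, and looser ones upstream of Acta2, Myl9 and Synm. The stretches below show them with their boxes in capitals, and they belong to genes that rose (Myl9), fell (Synm) or did not pass (Srf, Cnn2, Vcl). They lie at chr2:156775288-156775389 (plus strand), chr7:67759957-67759992 (minus), chr17:46556200-46556259 (minus), chr10:79988529-79988568 (plus) and chr14:20929156-20929195 (plus), in the order printed.
Myl9: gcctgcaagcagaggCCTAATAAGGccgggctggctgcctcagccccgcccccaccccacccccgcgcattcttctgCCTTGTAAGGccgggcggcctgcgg
Synm: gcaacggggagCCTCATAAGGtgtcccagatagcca
Srf: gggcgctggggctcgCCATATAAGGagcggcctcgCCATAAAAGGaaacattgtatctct
Cnn2: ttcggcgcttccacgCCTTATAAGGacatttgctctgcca
Vcl: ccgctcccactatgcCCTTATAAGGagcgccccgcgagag

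An exact box was present in 1 of 16 genes that rose and had a window, in 0 of 4 that fell and in 3 of 11 that did not pass, against 1.62% of all 27025 genes with a window. The looser form was present in 2 of 16, 1 of 4 and 0 of 11 of them, against 8.33% of all genes. A TEAD motif was present in 8 of the 16 genes that rose, in 2 of the 4 that fell and in 3 of the 11 that did not pass, against 14.4% of all genes. Actg2, Tagln and Myocd, which rose, and Myh11 and Csrp2, which did not pass, had no window and are absent from these counts. The shares of the genes that rose and of those that did not pass were not tested against each other. A match is a stretch of letters and not a measured binding site.

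Among the calponins and transgelins, actin-binding proteins that share the calponin homology fold, Tagln, Cnn1 and Cnn3 rose. Tagln, which encodes transgelin or SM22α, had log2 levels of 10.63, 9.98, 10.30 and 9.88 in bleomycin cells, against 8.76, 9.25, 9.29 and 9.16 in control cells. Its lowest bleomycin array lay above its highest control array, and it rose by 1.08 ± 0.17 (adjusted p = 0.00214). Cnn1, the calponin of differentiated smooth muscle, had 7.85, 7.15, 7.81 and 6.80 in bleomycin cells, against 6.40, 6.67, 6.72 and 6.29 in control cells. Bleomycin replicate 4 of Cnn1 nearly touched the control arrays, and the rise of 0.88 ± 0.22 (adjusted p = 0.0219) did not pass in 4 of the 8 fits that left out 1 array (largest adjusted p = 0.0611) or without control replicates 1 and 2 (0.90, adjusted p = 0.105). Cnn3, the acidic calponin found in many cells, rose by 0.55 ± 0.10 (adjusted p = 0.00502).

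The other calponin, Cnn2, and the second transgelin, Tagln2, are bright in many cell types. Cnn2 averaged 10.51 ± 0.12 in bleomycin and 10.32 ± 0.10 in control cells (SD, n = 4 each), and its difference of 0.19 did not pass (limma, 95% confidence interval -0.02 to 0.40). Tagln2 averaged 11.05 ± 0.06 and 11.02 ± 0.09 in bleomycin and control cells, with a 95% confidence interval of the difference from -0.16 to 0.22. The dimmer probe set of Tagln2 differed by 0.16 ± 0.17 and did not pass either (limma adjusted p = 0.585). On it bleomycin replicates 1 to 4 had 9.03, 8.98, 8.35 and 8.46, and control replicates 1 to 4 had 8.58, 8.81, 8.43 and 8.36.

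Myosin II genes went in different directions. Myh9, the heavy chain of non-muscle myosin IIA, had log2 levels of 10.92, 10.47, 10.98 and 10.59 in bleomycin cells, against 9.97, 9.99, 9.82 and 9.75 in control cells. The groups did not overlap, and Myh9 rose by 0.86 ± 0.13 (adjusted p = 0.00137). Myh10, the heavy chain of non-muscle myosin IIB, had 9.82, 10.00, 10.14 and 10.19 in bleomycin cells, against 10.50, 10.38, 10.45 and 10.53 in control cells. Here every bleomycin array lay below every control array, and Myh10 fell by 0.43 ± 0.10 (adjusted p = 0.0147), a call lost without control replicates 1 and 2 (-0.45, adjusted p = 0.0705). Myh11, the heavy chain of smooth muscle myosin and a marker of mature smooth muscle, had 7.99, 7.57, 7.80 and 7.51 in bleomycin cells, against 7.59, 7.49, 7.57 and 7.22 in control cells. These ranges overlapped, and the difference of 0.25 ± 0.13 did not pass (adjusted p = 0.221, 95% confidence interval -0.03 to 0.54).

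The proteins that regulate myosin also differed among themselves. Myl9, the regulatory light chain of smooth muscle and non-muscle myosin II, had log2 levels of 9.69, 9.18, 9.59 and 8.95 in bleomycin cells, against 8.70, 8.88, 8.83 and 8.57 in control cells. It rose by 0.61 ± 0.16 (adjusted p = 0.0255), but not in 4 of the 8 fits that left out 1 array (largest adjusted p = 0.0724), nor without control replicates 1 and 2 (0.65, adjusted p = 0.0990). Mylk, the kinase that phosphorylates this light chain, had 10.46, 10.69, 10.73 and 10.75 in bleomycin cells, against 10.92, 10.96, 11.03 and 11.04 in control cells. Mylk fell by 0.33 ± 0.09 (adjusted p = 0.0315), with groups that did not overlap. Its call was lost in 7 of the 8 fits that left out 1 array (largest adjusted p = 0.0830) and without control replicates 1 and 2 (-0.38, adjusted p = 0.0915).

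Of the 6 thin filament genes 5 rose and none fell. Tpm1, a tropomyosin that stabilises actin filaments, had log2 levels of 8.97, 8.89, 9.06 and 8.64 in bleomycin cells, against 7.73, 7.91, 7.75 and 7.82 in control cells. The groups did not overlap, and Tpm1 rose by 1.09 ± 0.10 (adjusted p = 0.000123). Tpm2, another tropomyosin of muscle and fibroblasts, had 7.98, 7.21, 7.94 and 7.27 in bleomycin cells, against 6.40, 6.55, 6.68 and 6.39 in control cells, and rose by 1.09 ± 0.18 (adjusted p = 0.00252). Caldesmon, Cald1, which inhibits myosin's activity on actin, rose by 0.52 ± 0.10 (adjusted p = 0.00638).

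Lmod1, a leiomodin that nucleates actin filaments in smooth muscle, averaged 6.31 ± 0.21 in bleomycin and 5.82 ± 0.10 in control cells (SD, n = 4 each) and rose (limma adjusted p = 0.0163). Smoothelin, Smtn, a protein of contractile smooth muscle, averaged 9.50 ± 0.12 and 9.09 ± 0.09 in bleomycin and control cells and rose by 0.41 (limma adjusted p = 0.0127). Its dimmer probe set differed by 0.25 and did not pass (adjusted p = 0.244), and neither did the brighter one without control replicates 1 and 2 (0.40, adjusted p = 0.0738). Tpm4, a tropomyosin of non-muscle cells, differed by 0.29 ± 0.10 on its brighter probe set (adjusted p = 0.0799) and by 0.73 ± 0.10 on its dimmer one, which passed (adjusted p = 0.00120), so the call on Tpm4 depends on the probe set.

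**Figure D2:**
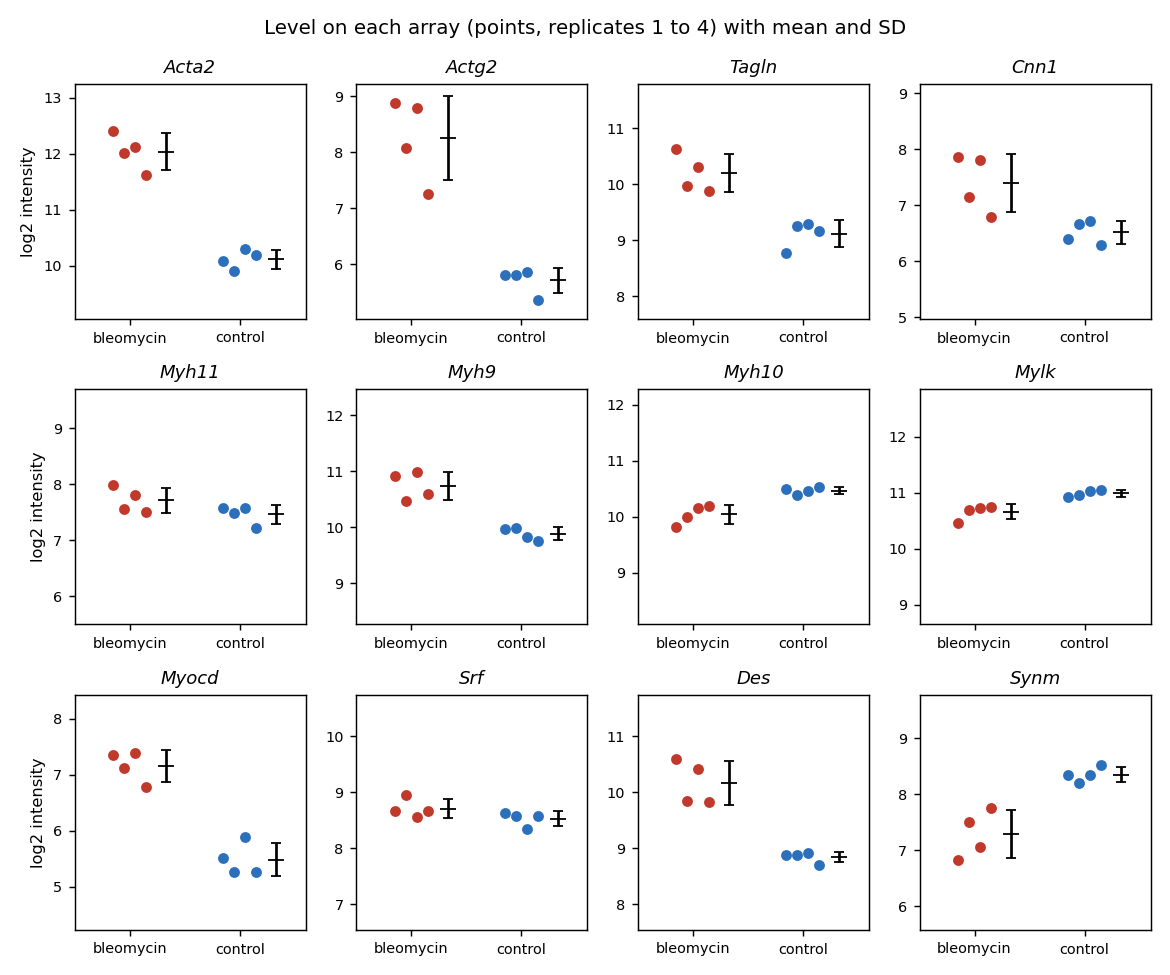
Log2 intensity of 12 genes on the 4 bleomycin and the 4 control arrays, as points in the order of replicates 1 to 4, with the mean and SD at their right. All panels span the same number of log2 units. Acta2, Actg2, Tagln, Cnn1, Myh9, Myocd and Des lay higher on every bleomycin array, Myh10, Mylk and Synm lower, and Myh11 and Srf overlapped.

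Of 9 actin cross-linkers and scaffold proteins 4 rose and none fell. Actn1, the α-actinin that bundles actin in stress fibres, had log2 levels of 11.61, 11.26, 11.54 and 11.16 in bleomycin cells, against 10.09, 10.21, 10.06 and 9.98 in control cells. The gap between the groups was wide beside the spread within them, and Actn1 rose by 1.31 ± 0.12, or 2.47-fold (adjusted p = 7.19e-05). Actn4, its close relative, rose by 0.73 ± 0.13 (adjusted p = 0.00311). Palladin, Palld, which binds α-actinin in stress fibres, had 8.91, 9.12, 8.98 and 8.89 in bleomycin cells, against 8.27, 8.45, 8.18 and 8.26 in control cells, and rose by 0.68 ± 0.09 (adjusted p = 0.000815). Pdlim7, a PDZ and LIM domain scaffold also called Enigma, rose by 0.58 ± 0.09 (adjusted p = 0.00163).

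The other 5 cross-linkers and scaffolds did not pass. Flna, which encodes filamin A and ties actin filaments into networks, differed by 0.17 (95% confidence interval -0.07 to 0.41). Synpo2, a partner of α-actinin and filamin in muscle, averaged 5.69 ± 0.18 in bleomycin and 5.61 ± 0.09 in control cells (SD, n = 4 each). Csrp1 and Csrp2, LIM proteins of smooth muscle, differed by 0.15 and 0.21. Csrp1 was nevertheless higher on every bleomycin array than on any control array, and it passed after quantile normalization (0.27, adjusted p = 0.0337). Pdlim5 differed by 0.42 ± 0.15 (adjusted p = 0.0889), with bleomycin replicate 2 at 8.10 inside the control range, and it passed without that array (0.55, adjusted p = 0.0283).

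Focal adhesions, where stress fibres meet the matrix, held 1 listed gene that rose (Lpp), 1 that fell (Zyx) and 2 that did not pass (Vcl and Tln1). Vinculin, Vcl, averaged 11.25 ± 0.13 in bleomycin and 11.24 ± 0.07 in control cells, and talin, Tln1, which links integrins to actin, averaged 9.78 ± 0.07 and 9.77 ± 0.07 (SD, n = 4 each). The 95% confidence intervals of the differences were -0.19 to 0.22 for Vcl and -0.17 to 0.19 for Tln1. Lpp, a LIM protein of adhesions that is prominent in smooth muscle, had 9.86, 9.65, 9.65 and 9.51 in bleomycin cells, with all control arrays between 8.997 and 9.244, and rose by 0.58 ± 0.10 (adjusted p = 0.00315). Its second probe set, with a mean of only 1.69 over all arrays, differed by 0.14 (adjusted p = 0.781), and the mean over both did not pass (0.36, adjusted p = 0.193). Zyxin, Zyx, its relative, had 10.02, 10.11, 9.89 and 10.09 in bleomycin cells, against 10.32, 10.17, 10.50 and 10.50 in control cells. Zyx fell by 0.34 ± 0.10 (adjusted p = 0.0413), and the call was lost in 7 of the 8 fits that left out 1 array (largest adjusted p = 0.114).

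The intermediate filament genes split. Desmin, Des, the intermediate filament of muscle cells and of some pericytes, had log2 levels of 10.59, 9.85, 10.42 and 9.82 in bleomycin cells, against 8.88, 8.88, 8.91 and 8.70 in control cells. It rose by 1.33 ± 0.17, or 2.51-fold (adjusted p = 0.000579), and all bleomycin arrays were above all control arrays. Synemin, Synm, which forms filaments together with desmin or vimentin, had 6.83, 7.51, 7.06 and 7.76 in bleomycin cells, against 8.34, 8.20, 8.34 and 8.52 in control cells. Every bleomycin array was below every control array, and Synm fell by 1.06 ± 0.18, to 0.48 times its control level (adjusted p = 0.00317). Vimentin, Vim, the general mesenchymal filament, averaged 12.69 ± 0.08 and 12.57 ± 0.07 in bleomycin and control cells, and the difference of 0.12 did not pass (limma adjusted p = 0.367). Its dimmer probe set differed by 0.49 ± 0.22 and did not pass either (adjusted p = 0.162). That probe set also differed between replicates 1 and 2 and replicates 3 and 4. On replicates 1 and 2 it had 11.35 and 11.40 in bleomycin cells, against 10.61 and 10.81 in control cells. On replicates 3 and 4 it had 10.54 and 10.61 in bleomycin cells, against 10.26 and 10.26 in control cells.

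Of the transcription factors, the smooth muscle coactivator myocardin changed and SRF itself did not pass. Myocd had log2 levels of 7.35, 7.12, 7.40 and 6.78 in bleomycin cells, against 5.52, 5.27, 5.89 and 5.27 in control cells. The groups were well apart, and Myocd rose by 1.67 ± 0.17, or 3.19-fold (adjusted p = 0.000173). Srf had 8.66, 8.95, 8.57 and 8.67 in bleomycin cells, against 8.63, 8.57, 8.34 and 8.58 in control cells. These levels overlapped, with a difference of 0.18 ± 0.11 and a 95% confidence interval from -0.06 to 0.42.

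The genes were also placed in 3 classes from general knowledge: 9 of mature smooth muscle, 10 that smooth muscle shares with myofibroblasts, and 17 measured ones that most cells express. Earlier results of these data were known when the classes were drawn up, so the classes are no independent contrast. Of the mature smooth muscle genes 6 rose (Actg2, Myocd, Des, Cnn1, Lmod1 and Smtn), Synm fell, and Myh11 and Synpo2 did not pass. Of the shared genes 7 rose (Acta2, Tpm2, Tpm1, Tagln, Palld, Myl9 and Cald1) and Mylk fell. Of the broadly expressed genes 6 rose (Actn1, Myh9, Actn4, Lpp, Pdlim7 and Cnn3), and Zyx and Myh10 fell. The class medians of the log2 difference were 0.49, 0.65 and 0.19. The mature smooth muscle class had the widest range, from -1.06 to 2.55, against -0.33 to 1.92 in the shared class and -0.43 to 1.31 in the broad class.

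**Figure D3:**
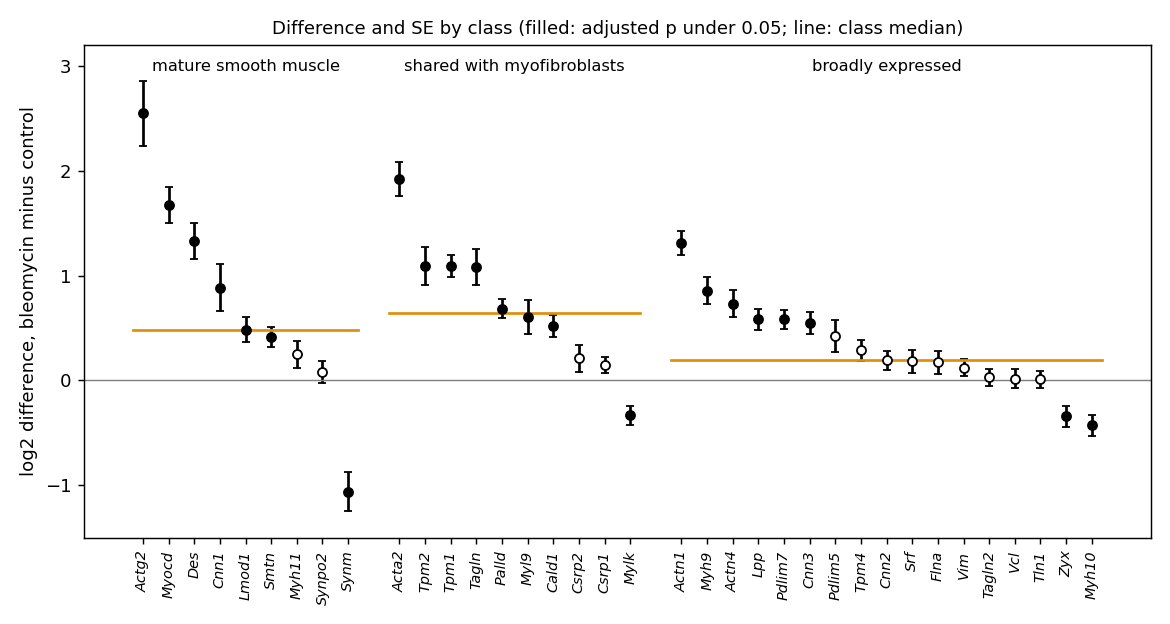
Log2 difference, bleomycin minus control, with SE for each gene, in 3 classes and ordered within each. Filled points have an adjusted p under 0.05, and the horizontal lines are the class medians of 0.49, 0.65 and 0.19. Mature smooth muscle genes spread from Actg2 at 2.55 to Synm at -1.06.

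Whether related genes changed unequally was tested on 13 pairs, from the difference of their log2 values within each array (exact permutation test over the 70 splits into 4 and 4 arrays, two-sided). The pairs were chosen with earlier results of these data known, so their p-values describe the pairs and are no independent support. Of these, 7 pairs reached 0.0286, the smallest p that this design allows, and the adjusted p over the 13 pairs was then 0.0531, so no pair passed at 0.05. For pairs, ± gives the SE from the spread of the within-array differences in each group, not limma's SE. Acta2 had a larger log2 difference than Myh11 by 1.67 ± 0.15 and Tagln a larger one than Tagln2 by 1.05 ± 0.21. Myh9 exceeded Myh11 by 0.61 ± 0.09, whereas Myh10 minus Myh11 gave -0.68 ± 0.21. Actn1 exceeded Actn4 by 0.58 ± 0.05, the smallest SE of these values, while Tpm4 minus Tpm2 gave -0.81 ± 0.19 and Vim minus Des gave -1.21 ± 0.20. On the dimmest probe sets Tpm4 minus Tpm2 was -0.37 (exact permutation p = 0.0857) and Vim minus Des was -0.84 (exact permutation p = 0.0571). In these 7 pairs, on the brightest probe sets, the within-array differences of the groups did not overlap.

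The remaining 6 pairs did not reach that p. Acta2 minus Actg2 gave -0.63 ± 0.28 and Cnn2 minus Cnn1 gave -0.69 ± 0.26 (exact permutation p = 0.0857 for each). Cnn3 minus Cnn1 gave -0.33 ± 0.22, and Pdlim7 minus Pdlim5 gave 0.16 ± 0.19. Csrp2 minus Csrp1 gave 0.07 ± 0.17 and Tpm1 minus Tpm2 gave -0.01 ± 0.17. Without bleomycin replicate 4, 9 pairs passed.

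**Figure D4:**
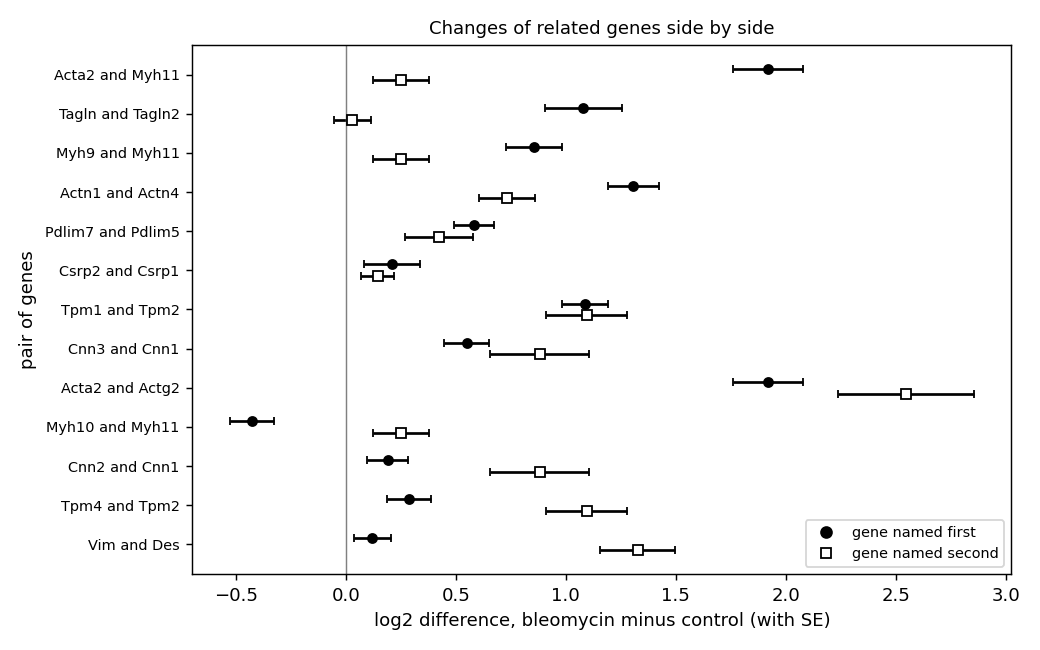
Log2 difference, bleomycin minus control, with SE for both genes of 13 pairs, ordered by the gap between them. Filled circles are the gene named first and open squares the gene named second. Acta2 and Myh11 lie farthest apart with the first gene ahead, and Vim and Des with the second gene ahead.

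The bleomycin arrays differed in how far the genes had moved. Over the 19 genes that rose, the mean log2 difference from the control mean was 1.24 on replicate 1, 0.89 on replicate 2, 1.15 on replicate 3 and 0.70 on replicate 4. Replicate 1 was the highest bleomycin array for 14 of the 19 genes and replicate 4 the lowest for 16 of them. Among all 2022 genes that rose, replicate 1 was highest in 46.5% and replicate 4 lowest in 51.7%. Of the 4 genes that fell, Synm, Myh10 and Mylk were lowest on replicate 1 and highest on replicate 4, whereas Zyx was lowest on replicate 3 and highest on replicate 2. The summed level of 7 proliferation markers was also highest on replicate 1, at 10.76, and lowest on replicate 4, at 9.68, with replicates 2 and 3 at 10.21 and 10.15 and control arrays between 7.75 and 7.99. The epithelial sum was highest on replicate 4, at 12.31, and lowest on replicate 3, at 11.05. The part of these cells in the order of the arrays was not tested.

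Other genes of the same pathways, in 4 lists, gave 28 that rose and 10 that fell among 73 measured of 79. Of all genes tested, 9.12% rose and 8.24% fell. Of the 10666 genes at least as bright as the dimmest contractile or cytoskeletal gene described above, 13.8% rose and 14.3% fell. The lists were not tested against these shares. In the list of contraction signalling, MRTF and actin dynamics 6 of 19 rose and 3 fell. Diaph3, a formin of dividing cells, rose by 2.06 ± 0.20, Rnd3, whose product opposes contraction, by 0.74 ± 0.09, and profilin, Pfn1, by 0.53 ± 0.09. Ppp1r14a, an inhibitor of the phosphatase that turns myosin off in smooth muscle, fell by 1.30 ± 0.20, Rhob by 0.78 ± 0.12 and the formin Diaph2 by 0.57 ± 0.13. Mrtfa, an SRF coactivator named after its value was seen, rose by 0.44 ± 0.12 (adjusted p = 0.0253), and its relative Mrtfb did not pass (-0.06, adjusted p = 0.811).

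Of 17 further smooth muscle genes 6 rose and 2 fell, and the median over the list was 0.03. The small heat shock gene Hspb7 rose by 2.29 ± 0.21, the muscle filamin Flnc by 1.04 ± 0.15 and the actinin-associated gene Pdlim3 by 0.78 ± 0.13. Pgm5, which encodes an adhesion protein of muscle, fell by 1.34 ± 0.16 and the myosin phosphatase subunit Ppp1r12b by 0.59 ± 0.16.

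Of 13 further focal adhesion genes 5 rose and 2 fell. The zyxin-binding LIM protein Tes rose by 1.18 ± 0.18, the adaptor Bcar1 by 0.69 ± 0.09 and the filamin-binding gene Fblim1 by 0.63 ± 0.11. Tensin 1, Tns1, fell by 0.95 ± 0.17 and the kindlin Fermt2 by 0.33 ± 0.08. Of 24 further actin cytoskeleton genes 11 rose and 3 fell. Anillin, Anln, which acts in cell division, rose by 2.42 ± 0.19, fascin, Fscn1, a bundler of actin in cell protrusions, by 1.88 ± 0.23, and the LIM gene Fhl2 by 1.33 ± 0.13. Ezrin, Ezr, and radixin, Rdx, which tie actin to the membrane, fell by 0.91 ± 0.15 and 0.39 ± 0.08, and the actin-severing gelsolin, Gsn, fell by 0.69 ± 0.13. All 7 measured proliferation markers rose, beside Anln and Diaph3, whose products act in dividing cells, and the part of dividing cells was not tested.

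Markers of other contractile cells in the gate gave a mixed picture. Of 10 pericyte markers 3 rose and 3 fell. The proteoglycan gene Cspg4 rose by 1.37 ± 0.20 and the receptor genes Pdgfrb and Notch3 by 0.86 ± 0.12 and 0.63 ± 0.10, while Abcc9, Higd1b and Ndufa4l2 fell by 0.65 ± 0.12, 0.61 ± 0.11 and 0.37 ± 0.10. The summed pericyte level ran from 11.98 to 12.18 on bleomycin arrays and from 11.72 to 11.93 on control arrays. Its brightest marker was Pdgfrb, which averaged 11.07 in bleomycin and 10.21 in control cells. The mean log2 level of the 10 markers overlapped, at 7.30 to 7.46 on bleomycin arrays and 7.13 to 7.44 on control arrays. Their median log2 difference was -0.18. Of 9 cardiac muscle markers, included because heart muscle lines large lung veins in mice, Tnnt2 rose by 1.13 ± 0.20 and Actc1 fell by 0.48 ± 0.11. Their means were 7.06 for Tnnt2 and 6.26 for Actc1 in bleomycin cells, and 5.93 for Tnnt2 and 6.74 for Actc1 in control cells. Tnnc1 averaged 6.46 in bleomycin and 6.66 in control cells, and Tnni3 5.13 in bleomycin and 5.27 in control cells, neither passing. The summed cardiac level ran from 8.61 to 8.99 on bleomycin arrays and from 8.63 to 8.78 on control arrays. The dimmest cardiac markers, Myh6, Myl7 and Sln, averaged 4.42, 3.71 and 2.93 in bleomycin and 4.63, 3.94 and 2.88 in control cells, close to or below the array medians of probe sets without a gene, which ran from 4.20 to 4.52. The part of pericytes and of heart muscle in the results was not tested.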

How the data were processed

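The deposited values are 1 log2 number per probe set for each of 8 arrays. The authors' table names no scale, and its range of 0.24 to 13.58 is why log2 intensity was assumed. How background correction, summarisation and normalization were done is not stated by any source used here. Arrays have no read depth, so their number limits the precision. Of 41345 rows, 23521 had 1 gene in the platform annotation, 1814 several and 16010 none, and 1082 of the 22180 tested genes had more than 1 probe set. Sample titles gave the groups and the replicate numbers.

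A linear model per gene (limma 3.58.1, R 4.3.3; lmFit, then eBayes) gave two-sided p-values, which were adjusted by Benjamini-Hochberg over all tested genes and tested on simulated data. All 36 measured members are named. Of each further pathway list, up to 3 passing genes with the largest change in each direction are named. The members, lists, pairs and classes were chosen with earlier results of these data known. Listed genes that were not measured are not reported here. Alternatives were other normalizations, probe sets, filters, eBayes options, blocks and subsets of arrays. Same-numbered replicates of the groups had correlations of their deviations of 0.13, 0.06, 0.11 and 0.06, so the numbers were not taken as pairs. Correlations between any bleomycin and any control array were 0.06 to 0.13 within replicates 1 and 2 or within 3 and 4, and -0.14 to -0.07 across these sets.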

Additional observations from a re-analysis of the deposited data

Results flagged for a closer look

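One array stood apart for 1 gene among the 72 combinations of gene and group that were examined, where chance flags about 1 in 20. For Actg2 the lowest control array, replicate 4, was at 5.36, while the other control arrays lay between 5.81 and 5.85. The rise of Actg2 without that array was 2.43 (limma adjusted p = 0.00205).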

How the results depend on the processing

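Of the 23 genes called, none changed sign under any alternative, and 16 kept their call under every one except the subsets with 2 arrays per group and the stricter threshold below. The same-numbered replicates as a block (replicate block) gave 19 genes that rose and 3 that fell, Zyx being lost at an adjusted p of 0.076, and not every array correlated best with its own number. Replicates 1 and 2 against 3 and 4 as a block gave 19 and 4, with 2293 and 2168 of all genes. Leaving out 1 array at a time gave 17 to 20 that rose and 2 to 3 that fell. Of all 22180 genes, 1497 to 1987 rose and 1306 to 1883 fell in those fits. With replicates 1 and 2 alone, 8 rose and 1 fell, 3 mature smooth muscle genes rose, and 15 genes of the pathway lists rose and 5 fell. With replicates 3 and 4 alone the counts were 6 and 0, 1, and 7 and 1, in fits with fewer samples. The calls over all genes dropped as well. With replicates 1 and 2 alone 838 of all 22180 genes rose and 833 fell, and with replicates 3 and 4 alone 503 and 220. Without control replicates 1 and 2, 2 genes fell, as did 6 of the pathway lists and 4.47% of all genes. At a threshold of 0.01, 15 rose and 1 fell, and the calls over all genes at that threshold were not counted. Leaving out 1 array, 0 to 9 pairs passed, with 9 only without bleomycin replicate 4.

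Differences near 0 changed sign, and the cause was not tested. Under median centring Tagln2, Vcl and Tln1 gave -0.021, -0.035 and -0.037. Leaving out 1 array, Vcl ran from -0.047 to 0.047, Tln1 from -0.014 to 0.047 and Tagln2 from -0.0037 to 0.065. With replicates 3 and 4 alone Synpo2 gave -0.0019 and Tln1 -0.013, and without control replicates 1 and 2 Tagln2 gave -0.039 and Tln1 -0.036. Tpm1 minus Tpm2 gave 0.019 under quantile normalization, 0.040 without control replicates 1 and 2, and -0.14 to 0.095 leaving out 1 array. Csrp2 minus Csrp1 gave -0.058 under quantile normalization and -0.041 to 0.15 leaving out 1 array. Pdlim7 minus Pdlim5 gave -0.10 with replicates 3 and 4 alone and -0.051 without control replicates 1 and 2.

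With 4 arrays per group, small differences cannot be resolved: the median standard error over all genes was 0.116, and the smallest exact p for a pair was 0.0286.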
